A study of Homo sapiens with 4 samples.

Results

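The genes described here are 10 genes of luminal epithelial identity, chosen by symbol as keratins, claudins and epithelial splicing or transcription regulators: KRT8, KRT18, EPCAM, CLDN3, CLDN4, CLDN7, ESRP1, ESRP2, SPDEF and ELF3. A probe set with 1 gene symbol was found for 9 of the 10, among 17687 genes in all, and ESRP2 was not analysed here. The data are whole-transcript array signals from total RNA of 22Rv1, a human castration-resistant prostate cancer cell line kept in charcoal-treated serum before hormone treatment. One culture set was transfected with siOCT1, directed at the POU-family factor OCT1 that binds octamer DNA, and the other with a control siRNA (siControl). After 48 h the cells received 10 nM dihydrotestosterone (DHT), a potent androgen, or ethanol vehicle for 24 h. The 4 groups were siOCT1 with DHT, siOCT1 with vehicle, siControl with DHT and siControl with vehicle, each with 1 array, so that no difference below has a replicate check. The level of the siRNA target was not analysed here, so the groups are named by their labelled transfection. The study asked which androgen responses of these cells depend on OCT1.

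Luminal cells of the prostate line the gland lumen and carry the androgen receptor. Their filaments are built of keratin 8 and keratin 18, which form obligate pairs, and their lateral membranes are sealed by tight junctions, whose strands are made of claudins. EpCAM is an adhesion protein of simple epithelia that binds claudin 7. ESRP1 and ESRP2 are RNA-binding proteins that set the epithelial form of alternatively spliced transcripts, and SPDEF and ELF3 are ETS transcription factors of secretory and simple epithelia. Gene-level signals do not show splicing.

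All values are log2 signals after RMA, and background was set on each array at the level below which 95% of its negative controls fell, between 6.62 and 7.39. Genes whose brightest array passed 6.51, the midpoint of such maxima over the genes, were called measured, 8843 in all. All 9 genes with a probe set were measured, and 7 of them lay above background on all 4 arrays. CLDN3 did so on 1 array and ELF3 on 2. Pairs of arrays had a Pearson r between 0.970 and 0.987 over probe sets, and 6458 genes lay above background on all 4. A size rule of 1.5-fold, or 0.58 on the log2 scale, was used to count differences between single arrays. The only test the design allows is limma's additive fit of siRNA and ligand over the 4 arrays, whose single residual degree of freedom is the siRNA-by-ligand difference and not the spread between cultures. The words rose and fell are kept for genes that this fit called after Benjamini-Hochberg adjustment over all measured genes, and a gene not called is not shown to be unchanged.

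Luminal markers were found on every array. KRT8, KRT18, EPCAM, CDH1 (E-cadherin), HOXB13 and FOXA1, the last pair being transcription factors of the prostate lineage, were above background on all 4 arrays. KLK3, which encodes prostate-specific antigen, was above it on both DHT arrays only. In siOCT1 with DHT its value of 6.94 barely passed the background of 6.91. The basal keratins KRT5 and KRT14 were below background on all 4 arrays, and of 7 basal markers with a probe set DST was the 1 above it. Of 13 immune and endothelial markers none was above background on any array. Of 16 mesenchymal and stromal markers 3 were above background in siOCT1 with DHT, 2 in siOCT1 with vehicle, 1 in siControl with DHT and 3 in siControl with vehicle, and VIM, ZEB1, ZEB2 and SNAI1 were below it on all 4. SNAI2 and TWIST1, transcription factors of mesenchymal cells, were above background on 3 arrays each, ACTA2, a smooth muscle actin, on both siOCT1 arrays, and the collagen gene COL1A2 on 1.

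Promoter sequences, taken from RefSeq (GRCh38.p14), run from 250 bases before to 50 bases after a gene's start, and 6 of the 10 genes had at least 1 such window, 7 windows in all. They were searched on both strands for the octamer ATGCAAAT bound by POU factors, the steroid receptor half-site AGAACA, the E-box CAGGTG recognised by zinc finger repressors of the SNAI and ZEB families, and the grainyhead site AACCGGTT. The following 3 windows are shown because they hold every match found, with the matches in capitals.
ELF3, chr1:202010337-202010636, plus strand: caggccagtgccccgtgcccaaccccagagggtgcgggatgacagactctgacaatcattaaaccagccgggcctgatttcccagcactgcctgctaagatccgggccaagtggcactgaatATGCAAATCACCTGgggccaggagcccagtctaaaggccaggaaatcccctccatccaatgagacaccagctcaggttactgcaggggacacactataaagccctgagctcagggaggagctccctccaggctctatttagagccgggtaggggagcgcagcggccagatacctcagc
CLDN7, chr17:7262429-7262728, minus strand: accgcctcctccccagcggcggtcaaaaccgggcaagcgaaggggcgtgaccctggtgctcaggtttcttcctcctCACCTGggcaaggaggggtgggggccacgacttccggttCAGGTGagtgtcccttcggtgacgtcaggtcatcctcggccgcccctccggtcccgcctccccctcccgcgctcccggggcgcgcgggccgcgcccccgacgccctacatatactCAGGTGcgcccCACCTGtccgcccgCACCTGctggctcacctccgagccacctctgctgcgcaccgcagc
CLDN3, chr7:73770221-73770520, minus strand: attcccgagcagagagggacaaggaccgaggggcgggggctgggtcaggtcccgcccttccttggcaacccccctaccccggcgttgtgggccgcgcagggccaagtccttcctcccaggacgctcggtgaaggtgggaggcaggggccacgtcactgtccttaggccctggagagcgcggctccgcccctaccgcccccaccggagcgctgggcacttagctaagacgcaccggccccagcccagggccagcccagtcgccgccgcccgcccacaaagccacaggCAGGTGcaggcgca

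The ELF3 window holds the 1 octamer found, which starts 128 bases before the gene's start and is followed directly by an E-box on the other strand, with no overlap. The octamer occurs in 1.77% of all 34943 promoter windows. The CLDN7 window holds 5 E-boxes, the most among the 7 windows. That number, picked as their highest, is reached by 0.0916% of all windows, while 20.6% hold at least 1. CLDN3 has 1 E-box, 37 bases after its start. The half-site, present in 14.8% of all windows, and the grainyhead site, present in 0.132%, were found in none of the 7. The windows of KRT8, CLDN4, SPDEF and the other CLDN7 start hold none of the 4 motifs. In the RefSeq gene order CLDN3 and CLDN4 are direct neighbours, and KRT8 and KRT18 have 1 entry between them, a microRNA gene.

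**Figure D1:**
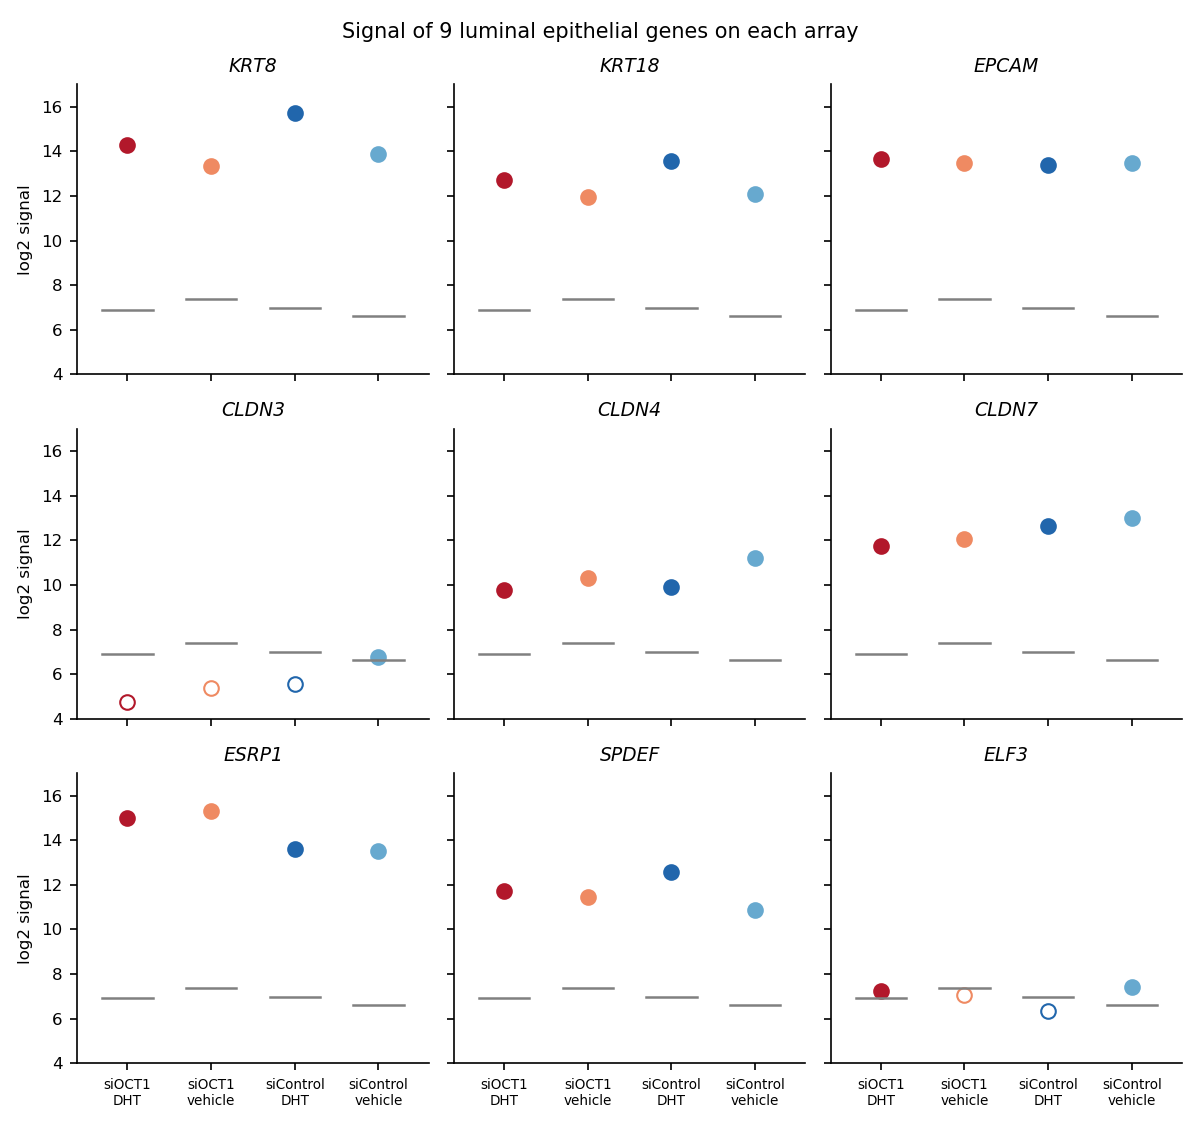
Log2 signal (vertical axis) of the 9 genes on each of the 4 arrays (horizontal axis). Grey bars mark each array's background, filled points lie above it and open points below it. KRT8 and KRT18 peak in siControl with DHT, ESRP1 is higher on both siOCT1 arrays, and CLDN3 and ELF3 lie near or below background.

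The paired keratins had their highest signal in siControl cells with DHT. KRT8 was at 14.28 in DHT and 13.36 in vehicle with siOCT1, against 15.72 in DHT and 13.87 in vehicle with siControl. KRT18 was at 12.71 and 11.95 with siOCT1, against 13.55 and 12.10 with siControl, in the same order. For each gene the siControl DHT array stood above the other 3, and the lowest value was that of siOCT1 in vehicle. KRT8 and KRT18 have many processed pseudogenes, so their probe sets may also read related transcripts. In bulk RNA, fewer cells of a type and less RNA per cell cannot be told apart.

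With siOCT1, KRT8 was lower by 1.44 in DHT and by 0.51 in vehicle, and KRT18 was lower by 0.84 and by 0.15. The KRT8 difference in DHT was lower than that of all but 7.27% of measured genes, while in vehicle 31.3% of measured genes lay below it. KRT8 fell with siOCT1 in the additive fit, with a mean difference of -0.97 ± 0.25 (SE) and an adjusted p of 0.0342 by limma. KRT18 was not called, at -0.50 ± 0.25 with an adjusted p of 0.187. The KRT8 call was lost in 4 of 9 other settings of the fit, with adjusted p of up to 0.0824, and the KRT18 difference in vehicle changed sign, to 0.062 after centring on positive controls and to 0.024 after loess centring.

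DHT went with higher keratin signal under both siRNAs. KRT8 was higher with DHT by 0.92 in siOCT1 and by 1.85 in siControl cells, and KRT18 by 0.76 and by 1.45. In siOCT1 cells these differences exceeded those of 94.2% and 91.1% of measured genes, and in siControl cells those of 98.5% and 96.9%. The DHT difference was smaller in siOCT1 cells, by 0.93 for KRT8 and 0.69 for KRT18, single values that could not be tested. The ligand term of limma's fit called neither, with 1.39 ± 0.25 (SE) and an adjusted p of 0.0663 for KRT8, and 1.11 ± 0.25 and 0.122 for KRT18. After centring on positive controls it called both, with adjusted p of 0.00264 and 0.0260.

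SPDEF, which drives secretory differentiation in several epithelia, had the most uneven pattern. Its signal was 11.74 in DHT and 11.45 in vehicle with siOCT1, against 12.57 in DHT and 10.89 in vehicle with siControl. Both siOCT1 values lay between the siControl values. With siOCT1 it was lower by 0.83 in DHT and higher by 0.56 in vehicle, and with DHT it was higher by 0.29 in siOCT1 and by 1.68 in siControl cells. The DHT difference in siOCT1 cells exceeded that of 71.3% of measured genes, that in siControl cells that of 98.0%. The 2 DHT differences were 1.39 apart, the widest gap of the 7 genes above background on all arrays. The additive fit called SPDEF for neither term, with adjusted p of 0.802 for siRNA and 0.292 for ligand by limma, and opposite siRNA differences enlarge its residual.

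ELF3, an ETS factor of simple epithelia, was too dim to follow. Its values were 7.23 in DHT and 7.06 in vehicle with siOCT1, against 6.37 in DHT and 7.41 in vehicle with siControl, and those of siOCT1 in vehicle and siControl in DHT lay below background. With siOCT1 in DHT it was at least 1.18-fold higher, and with DHT in siControl cells at least 1.33-fold lower. These bounds, set by the background of the dimmer array, leave out the noise of single arrays near background. limma called ELF3 for neither term, with adjusted p of 0.657 for siRNA and 0.673 for ligand.

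ESRP1, the splicing regulator, rose in siOCT1 cells. Its signal was 14.99 in DHT and 15.30 in vehicle with siOCT1, against 13.61 in DHT and 13.52 in vehicle with siControl, so that both siOCT1 arrays lay above both siControl arrays. The difference was 1.38 in DHT and 1.79 in vehicle, higher than that of 95.9% and 97.1% of measured genes. The mean difference of 1.58 ± 0.19 (SE) had an adjusted p of 0.00393 by limma, and ESRP1 was called in all 10 settings of the fit, with adjusted p of up to 0.0183. Its difference with DHT was -0.31 in siOCT1 and 0.093 in siControl cells, both under the size rule. With 1 array a group, this does not show that DHT left it unchanged.

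EPCAM was the gene with the narrowest range. It stood at 13.64 in DHT and 13.50 in vehicle with siOCT1, against 13.38 in DHT and 13.48 in vehicle with siControl. All 4 values lay within 0.26 of each other. With 1 array a group, this does not show that its expression was the same.

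The claudins were highest in siControl cells with vehicle. CLDN7, which binds EpCAM, was at 11.75 in DHT and 12.09 in vehicle with siOCT1, against 12.64 in DHT and 13.00 in vehicle with siControl, and both siOCT1 arrays lay below both siControl arrays. CLDN7 fell with siOCT1, by 0.89 in DHT and by 0.92 in vehicle, with a mean difference of -0.90 ± 0.22 (SE) and an adjusted p of 0.0267 by limma. Of measured genes, 16.4% in DHT and 19.3% in vehicle had a lower difference, so the size was common on these arrays. Without the intensity trend the fit no longer called it, with an adjusted p of 0.0564.

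CLDN4, a claudin that lowers the permeability of epithelia to sodium, was at 9.79 in DHT and 10.32 in vehicle with siOCT1, against 9.89 in DHT and 11.19 in vehicle with siControl. The siControl vehicle array stood above the other 3. With DHT it was lower by 0.53 in siOCT1 and by 1.30 in siControl cells, and in siControl cells only 2.02% of measured genes had a lower difference. With siOCT1 it was lower by 0.11 in DHT and by 0.87 in vehicle. limma called it for neither term, with a mean siRNA difference of -0.49 ± 0.29 (SE, adjusted p of 0.247) and a mean ligand difference of -0.91 ± 0.29 (adjusted p of 0.240). CLDN3 was at 4.77 in DHT and 5.40 in vehicle with siOCT1, against 5.57 in DHT and 6.78 in vehicle with siControl. It exceeded background in siControl with vehicle only, and no fold is given.

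**Figure D2:**
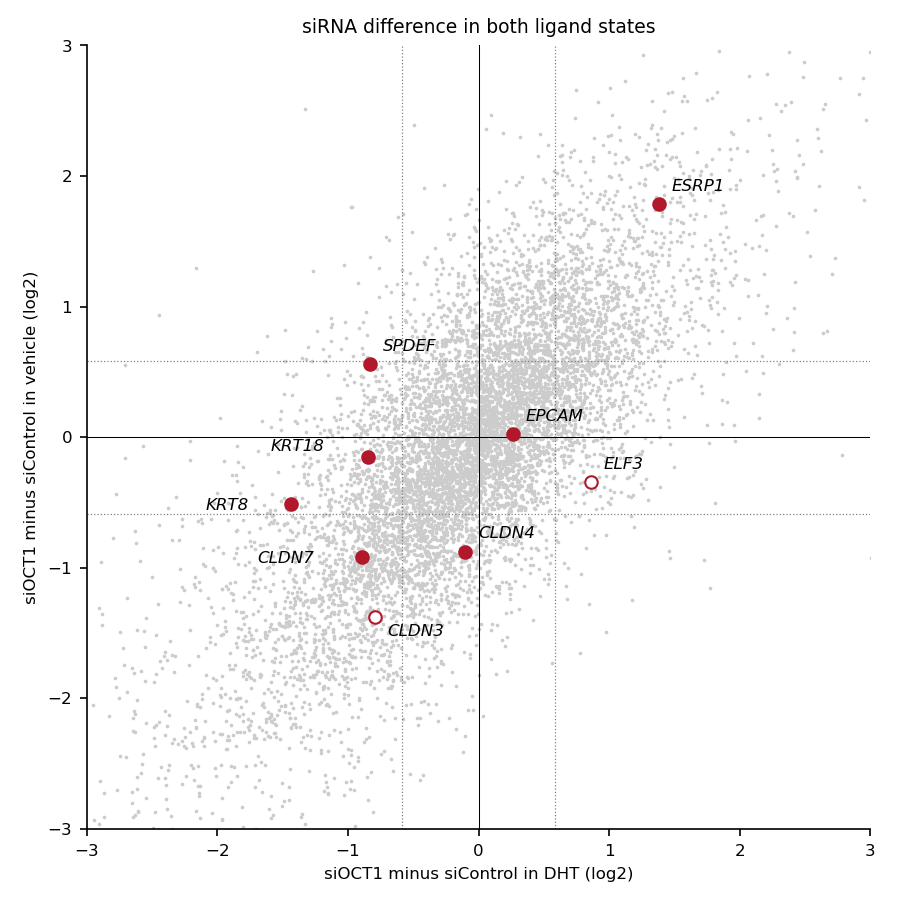
siOCT1 minus siControl on the log2 scale in DHT (horizontal axis) and in vehicle (vertical axis) for measured genes within the axes (grey) and the 9 luminal epithelial genes (red, open where below background on at least 1 array). Dotted lines mark 1.5-fold. ESRP1 lies at 1.38 and 1.79, CLDN7 at -0.89 and -0.92, and SPDEF at -0.83 and 0.56.

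Counted together over the 7 genes above background, siOCT1 went with 1 gene up and 4 genes down past the size rule in DHT, where the shares of all 6458 genes above background were 18.2% up and 22.9% down. In vehicle 1 was higher and 2 lower, against 22.8% and 25.3%. In both ligand states 1 was higher (ESRP1) and 1 lower (CLDN7), against 11.9% and 16.2%. The additive fit called 1 gene as risen and 2 as fallen, against 9.1% and 15.3% of measured genes (805 and 1353). Fitted over the 6458 genes above background alone, it again called 1 and 2 of the 7, beside 653 and 948 of all. Centring on positive controls moved the split of calls over measured genes to 1218 and 1344. It also moved the split of measured genes past the size rule in vehicle to 2752 higher and 1961 lower, against 2024 and 2541 without it. Differences of this size were frequent over the whole array. The median difference of the 7 was -0.83 in DHT and -0.15 in vehicle, against -0.037 and -0.013 over genes above background.

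With DHT, 2 of the 7 went up and 0 down past the size rule in siOCT1 cells, where 11.2% of genes above background went up and 9% down. In siControl cells 3 were higher and 1 lower, against 15.3% and 10.1%. Both keratins were higher under both siRNAs, as were 3.96% of genes above background, and 0 of the 7 were lower under both, as were 3.03%. limma's ligand term called 0 of the 7 after Benjamini-Hochberg adjustment, and over all measured genes 0.679% as risen and 0.305% as fallen. Fitted over the 6458 genes above background alone, it again called 0 of the 7, beside 31 as risen and 14 as fallen of all. Unadjusted p values were not counted over all genes, so none are read for the 7. Past the size rule in siControl cells, 1396 measured genes were higher and 1129 lower, and after centring on positive controls 1920 and 755. The median DHT difference of the 7 was 0.14 in siOCT1 and 0.093 in siControl cells, against 0.018 and -0.014 over genes above background.

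**Figure D3:**
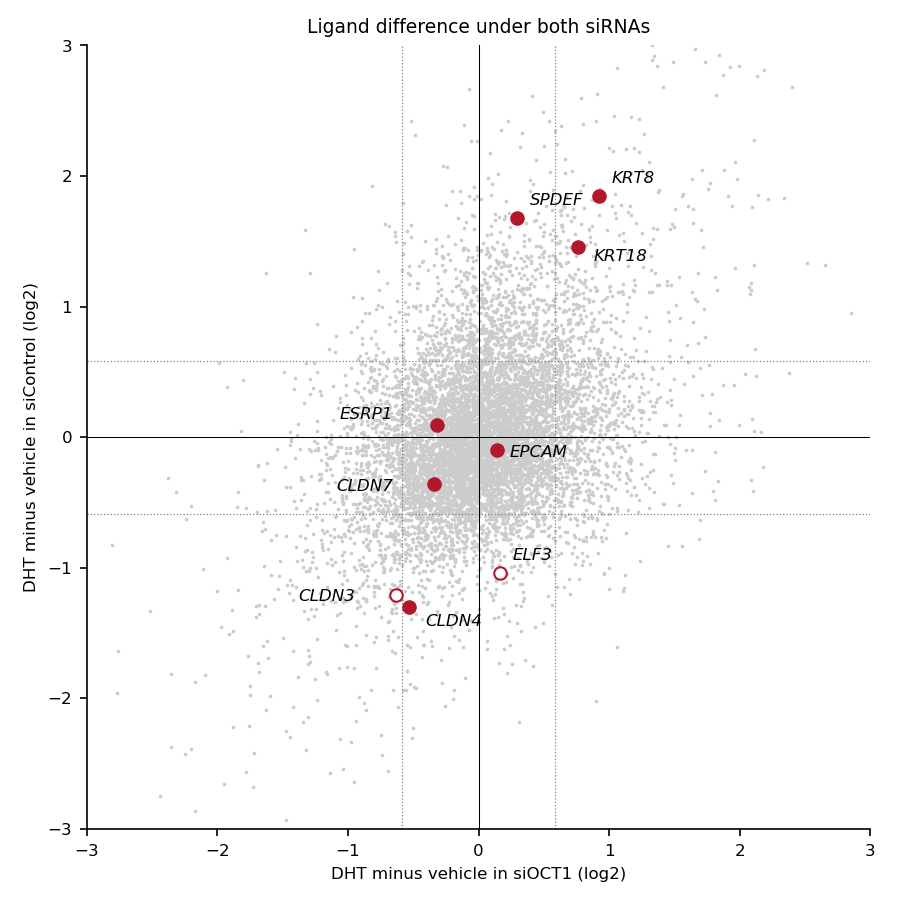
DHT minus vehicle on the log2 scale in siOCT1 cells (horizontal axis) and in siControl cells (vertical axis) for measured genes within the axes (grey) and the 9 luminal epithelial genes (red, open where below background on at least 1 array). Dotted lines mark 1.5-fold. KRT8 (0.92 and 1.85) and KRT18 (0.76 and 1.45) are past it on both axes, and SPDEF (0.29 and 1.68) on the vertical axis only.

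The likeness of 2 genes was measured as the Euclidean distance between their 4 log2 values, each gene minus its own mean. Among the 21 pairs of the 7 genes, KRT18 and SPDEF were closest, at 0.52, followed by KRT8 and KRT18 at 0.56 and CLDN4 and CLDN7 at 0.79. KRT8 and ESRP1 were farthest apart, at 2.98. EPCAM, whose values span less than 1, and the dim CLDN3 and ELF3 are given no match. Over 4 arrays, and with 6457 other genes above background, close matches are easily found. The closest gene to KRT8 was ARRDC1 at 0.27, that to KRT18 was TMEM106B at 0.14, and that to SPDEF was FAM111B at 0.12. GSK3B was closest to ESRP1 at 0.14, SLC6A6 to CLDN4 at 0.14 and YWHAG to CLDN7 at 0.071. Within a distance of 0.5 lay 12 genes for KRT8, 71 for KRT18, 81 for SPDEF, 109 for ESRP1, 68 for CLDN4 and 535 for CLDN7.

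Other genes of the same structures and families were read from lists. Calls are counted over the measured genes of each list, of which some lay below background on at least 1 array. Except where marked, the genes named had the largest mean siRNA or DHT differences of their list among genes above background on all 4 arrays. All were thus picked by their values in these data. Of 4 further simple epithelial keratins 1 was above background on all 4 arrays, KRT19, a keratin of ducts and glands. It was at 10.19 in DHT and 8.03 in vehicle with siOCT1, against 9.35 and 9.30 with siControl. It differed between ligands in siOCT1 cells only by the size rule, where KRT8 and KRT18 did so under both siRNAs, and this difference was not tested. Of 17 further claudins CLDN12 alone was above background, and it was lower with siOCT1 by 0.16 in DHT and higher by 0.59 in vehicle.

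Of 16 tight junction and polarity genes 2 rose and 1 fell with siOCT1, while 9.1% of measured genes rose and 15.3% fell. The median of the mean difference was 0.063, against -0.061 over measured genes. PATJ, a polarity scaffold, rose by 1.21 in DHT and by 1.67 in vehicle (adjusted p of 0.0119 by limma). OCLN, which encodes the strand protein occludin, rose by 1.12 and by 0.68, and the polarity gene LLGL1 fell by 1.12 and by 0.80. OCLN also fell with DHT, by 1.38 in siOCT1 and by 1.83 in siControl cells (adjusted p of 0.0443 by limma). For ligand 0 of the 16 rose and 1 fell, beside 0.679% and 0.305% of measured genes.

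Of 10 adherens junction and desmosome genes 2 rose and 2 fell with siOCT1, beside 9.1% and 15.3% of measured genes, with a median of 0.46. JUP, which encodes plakoglobin, rose by 1.15 in DHT and by 1.12 in vehicle, and DSP, which encodes the desmosome linker desmoplakin, rose by 0.97 and by 0.81. CTNNB1, which encodes beta-catenin, fell by 0.79 and by 1.02, and the desmosome gene PKP2 fell by 2.12 and by 0.63. DSP is named after its values were seen. CDH1 was higher with siOCT1 by 0.38 in DHT and by 0.24 in vehicle and was not called. With DHT CDH1 was lower by 0.72 in siOCT1 and by 0.85 in siControl cells. PKP2 was higher with DHT, by 0.39 and by 1.89. The ligand term called neither, with adjusted p of 0.209 and 0.271 by limma.

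Among 10 EpCAM partners and membrane proteases 2 rose and 1 fell with siOCT1, beside 9.1% and 15.3% of measured genes, with a median of 0.16. CD24, a surface glycoprotein, was at 13.52 in DHT and 13.46 in vehicle with siOCT1, against 10.34 and 10.70 with siControl. It rose by 3.18 in DHT and by 2.76 in vehicle (adjusted p of 0.00137 by limma). CD24 has near-identical copies that its probe set may not separate. TSPAN8, a tetraspanin of epithelia, rose by 1.95 and by 0.72, and the tetraspanin CD9 fell by 0.82 and by 1.52. PRSS8, the membrane protease prostasin, was higher by 0.75 and by 0.58 and was not called (adjusted p of 0.0782). With DHT TSPAN8 was lower by 0.86 in siOCT1 and by 2.09 in siControl cells, and PRSS8 by 0.51 and by 0.68. The ligand term called neither.

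Of 13 RNA-binding splicing regulators 1 rose and 2 fell with siOCT1, beside 9.1% and 15.3% of measured genes, with a median of 0.095. MBNL2, a muscleblind splicing factor, was at 10.35 in DHT and 10.38 in vehicle with siOCT1, against 8.10 and 7.25 with siControl, and rose by 2.25 and by 3.13 (adjusted p of 0.00318 by limma). SRSF1, a general splicing factor, fell by 0.98 in DHT and by 1.51 in vehicle. HNRNPM, named after its values were seen, fell by 0.86 and by 0.83. PTBP2, a neuronal relative of the polypyrimidine tract binding protein, was higher by 0.55 in DHT and by 1.58 in vehicle and was not called (adjusted p of 0.0504).

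Of 17 further ETS genes measured 2 rose and 3 fell with siOCT1, beside 9.1% and 15.3% of measured genes, with a median of 0.061. The 3 that fell lay below background on at least 1 array and are named after their values were seen. ELK1, a factor of the serum response, was at 7.07 in DHT and 7.25 in vehicle with siOCT1, against 9.10 in DHT and 9.10 in vehicle with siControl (adjusted p of 0.00537 by limma). ETV5, of the PEA3 group, was below background on both siOCT1 arrays, at 4.06 in DHT and 4.17 in vehicle, against 7.36 in DHT and 7.69 in vehicle with siControl (adjusted p of 0.00360 by limma). ETV4, of the same group, was called as lower (adjusted p of 0.0243 by limma) but lay below background on all 4 arrays. ELF5, a factor of secretory epithelia, rose by 1.26 in DHT and by 1.62 in vehicle, and ELF1 by 0.88 and by 0.94. EHF, another epithelial ETS factor, was higher by 0.59 and by 1.37 and was not called. ELK4, a known androgen-induced gene of prostate cells, rose with DHT by 1.31 in siOCT1 and by 1.48 in siControl cells (adjusted p of 0.0234 by limma).

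Of 9 other epithelial and prostate transcription factors measured 1 rose and 0 fell with siOCT1 in limma's fit, beside 9.1% and 15.3% of measured genes, with a median of 0.11. GATA3, a factor of luminal epithelia, rose, at 6.96 in DHT and 7.92 in vehicle with siOCT1, against 5.61 in DHT and 6.60 in vehicle with siControl, both siControl values being below background (adjusted p of 0.0293 by limma). With DHT 1 of the 9 rose and 1 fell, beside 0.679% and 0.305% of measured genes. KLF4, a zinc finger factor of differentiating epithelia, rose with DHT, at 8.58 in DHT and 6.02 in vehicle with siOCT1, and at 8.13 in DHT and 3.86 in vehicle with siControl, both vehicle values being below background (adjusted p of 0.0286 by limma). GATA3 and KLF4 are named after their values were seen. KLF5, a zinc finger factor of epithelia, was lower with siOCT1 by 1.13 in DHT and higher by 0.73 in vehicle. FOXA1 was higher by 0.35 and by 0.39. HOXB13 was lower with DHT, by 0.98 in siOCT1 and by 0.67 in siControl cells, and was not called (adjusted p of 0.229). GATA2, a factor that assists androgen receptor binding, fell with DHT, by 1.93 in siOCT1 and by 3.26 in siControl cells (adjusted p of 0.0291 by limma).

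SNAI2, which encodes a repressor that binds the E-box searched above, was at 7.67 in DHT and 4.27 in vehicle with siOCT1, against 11.75 in DHT and 8.32 in vehicle with siControl, with the siOCT1 vehicle value below background. It fell with siOCT1 and rose with DHT, with adjusted p of 0.000955 and 0.00406 by limma. Among the 6 mesenchymal and stromal markers measured 1 rose and 1 fell with siOCT1, beside 9.1% and 15.3% of measured genes. For ligand 1 rose and 0 fell, beside 0.679% and 0.305%. ACTA2, the other called gene, rose with siOCT1 (adjusted p of 0.0155 by limma). It was at 7.37 in DHT and 7.76 in vehicle with siOCT1, against 5.90 in DHT and 5.62 in vehicle with siControl, both below background. SNAI2 and ACTA2 are named after their values were seen. The part of SNAI2 in the values of CLDN7 was not tested.

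**Figure D4:**
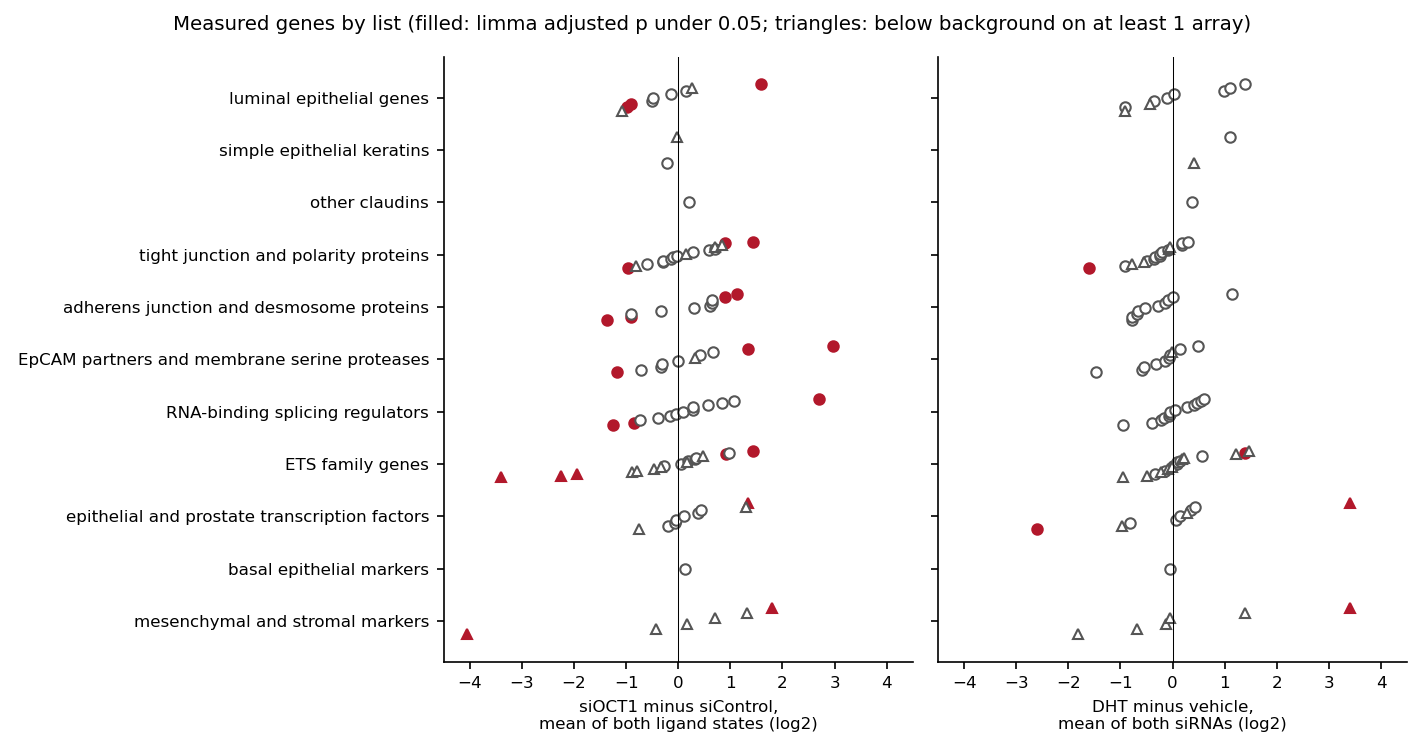
Mean log2 difference of each measured gene, for siOCT1 minus siControl (left) and DHT minus vehicle (right), with 1 row of points per gene list. Filled points were called by limma after Benjamini-Hochberg adjustment, and triangles mark genes below background on at least 1 array. ESRP1 is the filled point at 1.58 in the top row on the left, and that row has no filled point on the right.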

How the data were processed

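Per the labels' protocols, biotin-labelled total RNA was hybridised to 1 Affymetrix whole-transcript array per group. The deposited values are log2 signals made by the authors. The submitters' processing notes name RMA and Affymetrix Expression Console, and neither versions nor a genome build are given in the sources used here. RMA gives all arrays a common distribution and hides a change that touches every transcript alike. Each array holds 327 to 379 values over 16, more than a 16-bit scanner can give on this scale, which may therefore be stretched, so folds apply to the deposited scale. Of 24351 probe sets, 17709 had 1 gene symbol and 0 had several. They gave 17687 genes, and the brightest probe set on average was used for the 20 genes with more than 1. Positive (2197) and negative (612) controls were known by their probe set names.

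Groups came from the labels. Differences were taken between single arrays. limma 3.58.1 in R 4.3.3 fitted siRNA and ligand as additive terms with an intensity trend over 8843 genes (1 residual degree of freedom, prior of 5.85), and calls were made at a Benjamini-Hochberg adjusted p under 0.05. Precision is limited by there being 4 arrays. Python 3.11.15 with pandas 2.3.3 did the rest. Other values, filters and fits were tried as alternatives.

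The 10 genes and the 11 other lists were chosen with earlier results of these data known. Named were the 10 genes, in each other list, among genes above background on all arrays, the 3 with the largest mean siRNA difference and the 2 with the largest mean DHT difference, and the nearest profiles. Some of these genes, and the DHT or siRNA values of others, are left out of the text.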

Additional observations from a re-analysis of the deposited data

Results flagged for a closer look

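The siOCT1 difference of SPDEF had opposite signs in the 2 ligand states, at -0.83 in DHT and 0.56 in vehicle. The DHT difference of EPCAM was 0.14 in siOCT1 and -0.10 in siControl cells, and that of ESRP1 was -0.31 in siOCT1 and 0.093 in siControl cells, all under the size rule. After centring on positive controls the EPCAM difference in siControl cells was 0.049, with no opposite sign left. None of these opposite signs was tested, since each rests on 1 array per group.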

How the results depend on the processing

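Over 406 values of the 7 genes above background under 10 alternatives, 378 kept their direction and their side of the threshold, 16 fell below it and 6 passed it. Another 6 changed sign, none of them past a threshold: the ligand term of EPCAM, to -0.017 with loess centring (adjusted p of 0.986 by limma), the DHT difference of EPCAM in siControl cells with positive-control centring, and, with both centrings, the KRT18 difference in vehicle and the change of the CLDN7 DHT difference by siOCT1. Under a 2-fold rule the genes lower with siOCT1 numbered 1 in DHT, 0 in vehicle and 0 in both ligand states, and those higher with DHT numbered 0 in siOCT1 cells and 0 under both siRNAs. Centring arrays on the positive controls moved the median siRNA difference of measured genes in vehicle by 0.21. It moved their median DHT difference in siControl cells by 0.15. Those of the 7 higher with siOCT1 in vehicle then numbered 2, beside 2752 measured genes. CLDN4 became the 1 gene lower with DHT in siOCT1 cells and the 1 lower under both siRNAs, beside 1240 and 341 measured genes. The ligand fit then called 2 of the 7 as risen, beside 197 measured genes. With loess centring 2 of the 7 were higher with siOCT1 in vehicle, beside 2273 measured genes. The fit called 1 of the 7 as fallen with siOCT1 with no filter on dim genes and 1 with loess centring. Over all genes fitted it called 1044 and 1245 as fallen in these settings. It called 1 of the 7 with values raised to the highest background and 0 without the intensity trend. The cause of these changes was not tested. Over all genes fitted, the ligand term called 60 as risen and 27 as fallen, against 197 and 96 with positive-control centring, 75 and 42 with loess centring, 43 and 14 with no filter, 31 and 14 over genes above background, 22 and 8 without the trend, and 8 and 1 with raised values, where the siRNA term called 485 as risen, against 805. With values raised to the highest background, 7734 genes that were not at that level on all 4 arrays were fitted. Adding 32 before the logarithm, taking the mean of probe sets, robust moderation and fitting genes above background on all 4 arrays changed no call of the 7 genes. No paired analysis was possible because each group holds 1 array. Signal near background limits CLDN3 and ELF3.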
